A study of Mus musculus with 4 samples.

Results

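Erythroid cells are the nucleated and enucleated red cells of the embryo, and here they were picked by their own hemoglobin transcripts. A cell counted as erythroid where Hba-a1, Hba-a2, Hba-x, Hbb-bs, Hbb-bt, Hbb-y and Hbb-bh1, the genes of the alpha-like and beta-like globin chains, together made at least 20% of its unique molecular identifiers (UMIs). The cells first had to show 200 to 6000 genes and at most 10% of UMIs from mitochondrial genes. Of 44320 cells kept by that filter in the 4 libraries, 328 met the globin rule (0.740%). Because globins chose these cells, their globin levels are given only as description, and every level below is in CPM, counts scaled so that the non-globin UMIs of a group of cells sum to 1000000.

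The cells come from mouse knee, labelled Interzone: presumptive knee joint regions of the hindlimb cartilage anlagen, digested with collagenase and run on the 10x Genomics 3' v3.1 kit. Each of 4 groups is a single library. The groups are a No cre control at embryonic day E13.5, a No cre control at E14.5, Prx1cre;Glut1f/f;Glut3f/+ at E14.5, and the double conditional knockout (DCKO) Prx1cre;Glut1f/f;Glut3f/f at E14.5. Prx1cre recombines floxed alleles in limb mesenchyme and not in blood, so the erythroid cells of the mutant libraries are cells of mutant limbs and are not expected to have lost Glut1 or Glut3 themselves. The labels do not say how many embryos each library pools.

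Mouse embryos make red cells in successive waves. Primitive cells arise in the yolk sac, enter the blood with their nuclei, carry the embryonic globins and lose the nucleus later, while definitive cells mature in the fetal liver, carry adult globins and reach the blood mostly without a nucleus. In both, heme synthesis starts with Alas2 in the mitochondrion and ends with Fech, which puts the iron in, while the cell strips away most other RNA, organelles and proteins.

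The E13.5 control gave 136 erythroid cells of 12446 kept cells, 1.09% (0.918 to 1.29). The E14.5 control gave 91 of 9305, 0.978% (0.788 to 1.20), Prx1cre;Glut1f/f;Glut3f/+ gave 61 of 11264, 0.542% (0.414 to 0.695), and DCKO gave 40 of 11305, 0.354% (0.253 to 0.482). With this filter both mutant libraries held a smaller erythroid share than either control, but the order of the shares depends on the minimum of genes. With at least 500 genes they were 0.438, 0.200, 0.240 and 0.128%, and with no minimum 1.26, 1.90, 1.26 and 0.836%. Ranges in brackets are 95% intervals and hold counting error only. With 1 library per group, differences between embryos, their sex, dissections and genotypes cannot be told apart.

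Globins made a median of 82.7, 90.8, 72.9 and 86.1% of UMIs in the erythroid cells, with both controls first, by age, then Prx1cre;Glut1f/f;Glut3f/+ and then DCKO, an order kept wherever 4 values follow each other. The threshold falls in a sparse stretch: the members nearest to it held 22.6, 28.0, 20.5 and 20.3% globin, the nearest cells outside it 16.9, 8.79, 16.1 and 15.5%. Across all libraries 18 kept cells lay between 5 and 20% globin and 43962 below 1%. Members held 97.1, 98.9, 96.7 and 96.7% of all globin UMIs of kept cells, yet a globin UMI turned up in 47.1, 41.6, 28.0 and 16.3% of the other cells.

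The libraries were alike in depth, with 100344565, 84188147, 97110697 and 91574038 UMIs in all. Erythroid cells had a median of 7566, 8811, 7871 and 7894 UMIs, but most were globin, so that 1328, 727, 933 and 800.5 non-globin UMIs and 434, 280, 351 and 293 genes remained. Other cells showed 2430.5, 2573, 2381 and 2250 genes. Between 24 and 37 barcodes of kept cells recurred in each pair of libraries, and no erythroid barcode did. Mitochondrial genes made a median of 0.327, 0.286, 0.507 and 0.280% of UMIs in erythroid cells against 2.83, 2.40, 2.84 and 2.31% in other cells.

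**Figure D1:**
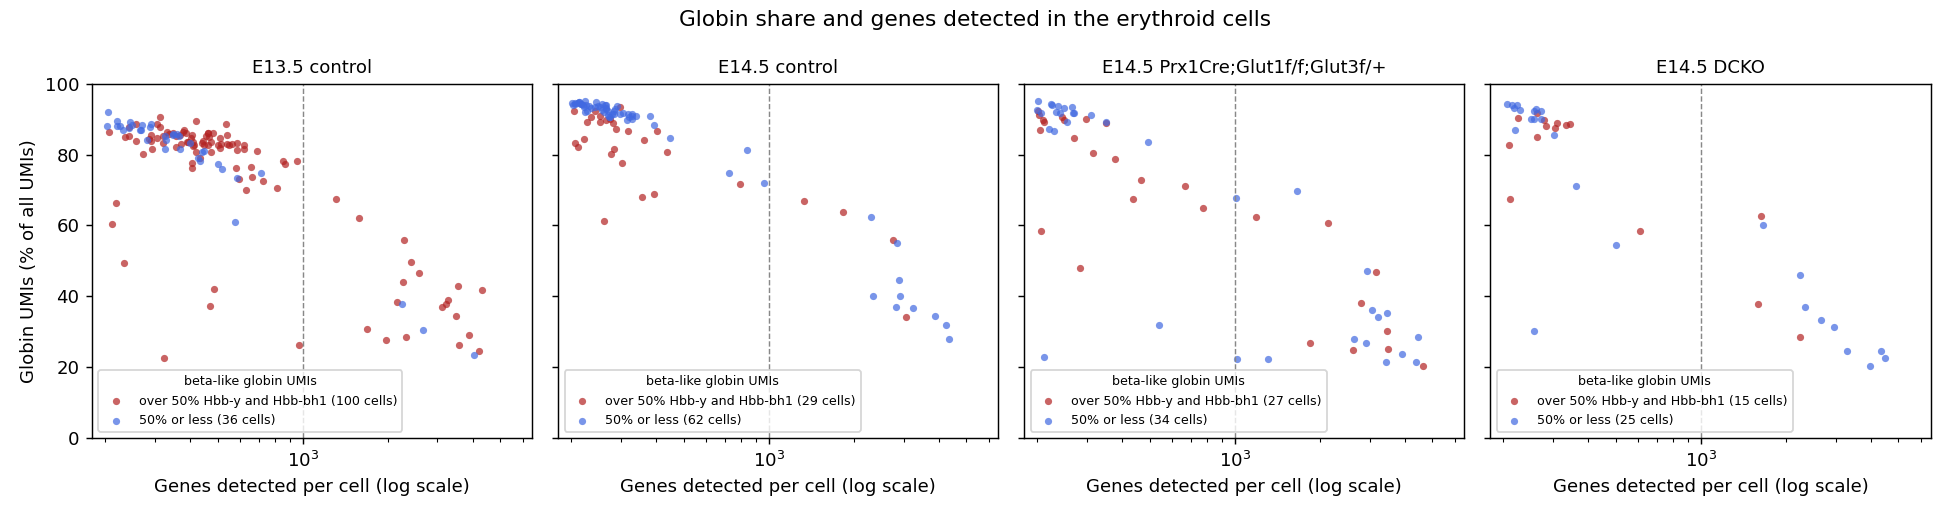
Globin share of all UMIs against genes detected (log scale) for each of the 328 erythroid cells, 1 panel per library. Red points have more than 50% Hbb-y and Hbb-bh1 among beta-like globin UMIs, blue points 50% or less, and the dashed line stands at 1000 genes.

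Before any result, 71 of the 328 members need a word: they held more than 1000 genes (22, 14, 23 and 12 cells) and are called larger members here; whether each held more than 1 cell was not tested. Of these, 69 had at least 5 UMIs from cartilage and connective tissue markers, against 13 of the 257 members with at most 1000 genes. Their globin share was a median of 37.9, 40.0, 28.6 and 32.3%, against 83.6, 91.5, 89.5 and 89.3% in the members with at most 1000 genes. Their globin UMIs were of the same size, 5424, 6867, 5511 and 5164 against 5732, 7858, 5276 and 6348. Few as they are, they supplied 58.9, 68.3, 89.0 and 87.2% of all non-globin UMIs of the erythroid cells, so counts of genes are given for all members and for members with at most 1000 genes. The bound of 1000 genes was set after these values were seen.

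Markers of the label stood out in the erythroid cells. The 9 erythroid markers, among them Alas2, Slc4a1, Epb42, Rhag, Gata1, Klf1 and Hemgn, all had UMIs, summing to 3969, 4912, 1352 and 2445 CPM against 1.81, 0.790, 1.46 and 1.06 in other cells, with Alas2 the most abundant. In members with at most 1000 genes the sum was 8474, 14062, 8909 and 11854, and Epb42 alone was at 0, in DCKO. Markers of cartilage, led by Col2a1 in all members, were clearly lower in each library only in members with at most 1000 genes: 13 genes summed to 4304, 10387, 13504 and 9476 in all members and to 793, 1548, 947 and 709 in members with at most 1000 genes, against 4764, 15752, 13658 and 15055 in other cells. In that smaller set Cnmd was at 0 at E13.5, Col9a1 in Prx1cre;Glut1f/f;Glut3f/+, and Col2a1, Acan, Matn1, Hapln1 and Snorc in DCKO. The 12 connective tissue markers, led by Mdk or Sparc, behaved alike, with 2288, 4149, 5044 and 3366 in all members and 597, 839.8, 631 and 659 without the larger cells. Markers of blood cells of other kinds had few UMIs, with 6, 2, 4 and 0 for 11 macrophage markers and 1, 3, 0 and 0 for 8 platelet markers. The 10 markers of other blood cells had 7, 4, 3 and 0. Macrophage markers were lower in CPM than in other cells in each library. Platelet markers stood at 2.99, 15.7, 0 and 0 CPM against 4.13, 4.09, 5.66 and 6.88 in other cells, so they were higher in the E14.5 control. The markers of other blood cells were lower in each library, but in the E14.5 control only at 20.9 against 23.3. Counts this small cannot show that such cells or their RNA were absent. Endothelial markers gave 85, 57, 55 and 4 UMIs in all members, or 254, 298, 213 and 25.9 CPM against 60.6, 40.3, 66.6 and 72.6 in other cells, but 3, 0, 1 and 1 UMIs with at most 1000 genes (their part in the results of all members was not tested), and muscle markers 81, 10, 8 and 6 but 22, 6, 1 and 0.

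Set beside the other cells of the same libraries, the erythroid cells carried the tools of hemoglobin making: heme enzymes, iron handling proteins, the red cell membrane, and the proteins that guard against oxidation. A gene was tested where one side of a comparison held at least 10 of its UMIs, in each library where all 4 are compared. Of 15929 genes tested, 93 were at least 4-fold higher in the erythroid cells of each of the 4 libraries (0.584%), and 0 were as much lower (0%), against 45 and 200 in CPM of all UMIs and 165 and 168 as means over cells. Members with at most 1000 genes gave 180 of 15926 higher (1.13%) and 69 lower (0.433%), and 85 genes were shared by the 93 and the 180. Depth shapes this split and the list counts below. In these members of DCKO 1 UMI makes 50.7 CPM, and a count of 0 is set at 152 CPM. A gene rare in other cells can thus pass as higher on 1 UMI, while only an abundant gene can pass as lower. Since members were picked in this same contrast, these counts describe them and test nothing.

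Heme synthesis was led by Alas2, the red cell form of its first enzyme. Alas2 reached 2252, 3145, 860 and 1187 CPM, against 0.353, 0.0765, 0.163 and 0.0912 in other cells, log2 ratios of 12.64, 15.33, 12.37 and 13.67. A UMI of Alas2 was present in 89.7, 85.7, 77.0 and 85% of erythroid cells at the non-globin depths above, and in 0.171, 0.0651, 0.0714 and 0.0266% of other cells at median non-globin depths of 6165, 7253, 6749 and 6373. Thinned to 250 non-globin UMIs, the erythroid shares would be 52.6, 64.4, 37.3 and 44.9%. Alas2 was thus nearly confined to these cells in all 4 libraries. Of 12 heme genes, 3 were 4-fold higher throughout, among them Alas2 and Fech. Fech stood at 601, 763, 263 and 305 CPM, log2 ratios of 4.29 to 5.83. Without larger members the count was 7 of 12, adding Alad, Urod, Ppox and the transporter Abcb10.

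Ferritin was the most abundant of the higher RNAs. Fth1 and Ftl1, the heavy and light chains of ferritin, stood at 47627, 19636, 11788 and 17745 and at 23927, 21052, 9157 and 10935 CPM, log2 ratios of 3.29 to 5.30 and 2.06 to 3.33. Both are uncertain, since pseudogene copies share their sequence. Slc25a37, the mitochondrial iron importer, stood at 685, 1578, 372 and 746 CPM (log2 4.51 to 6.45). In all, 7 of 18 iron and heme handling genes were 4-fold higher in every library, the others being Hmox1, which breaks heme down, Blvrb, Ncoa4, which carries ferritin to lysosomes, and Isca1. Tfrc, the transferrin receptor, and Glrx5 joined them in members with at most 1000 genes, where Tfrc had log2 ratios of 2.02 to 3.46.

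Of 28 genes of the red cell surface and skeleton, 23 passed the entry count and 10 were 4-fold higher in each library, among them Slc4a1, the band 3 anion exchanger, the blood group carriers Rhd, Kel, Icam4, Ermap and Xk, and Add2, Tmod1 and Tmcc2. Some of these rest on few UMIs. Add2 had 31, 2, 4 and 8, with those of the E14.5 control and of DCKO each in 1 cell. Icam4 had 14, 5, 3 and 22, and 1 DCKO cell held 15 of the 22. Members with at most 1000 genes gave 8 of 21, among them Slc4a1, Rhd, Tmod1, Tmcc2 and Ermap, with Epb41 and Mpp1 new. Slc4a1 stood at 631, 397, 105 and 298 CPM. Its log2 ratios were 11.28 to 14.93, where it had no UMI in the other cells of Prx1cre;Glut1f/f;Glut3f/+ and its value there, 11.65, is a bound. The carbonic anhydrase Car2 stood at 2085, 1369, 414 and 973 CPM (log2 7.80 to 10.74).

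Regulators were scarce in UMIs but still set apart. Of 19 transcription factors and cofactors, 5 were 4-fold higher throughout: Klf1, Tal1, Lmo2, Lyl1 and Trim10, a ring finger protein of terminal red cell maturation kept on this list. With at most 1000 genes it was 8 of 19, adding Zfpm1, E2f2 and Foxo3. Trim10 stood at 332, 277, 73.6 and 162 CPM and Tal1 at 236, 26.1, 31.0 and 25.9. Gata1, the founding factor of the lineage, had 3, 1, 1 and 1 UMIs and Klf1 15, 2, 3 and 7, so neither can be followed between libraries. Of 10 genes of erythropoietin signalling, Epor passed in all members, with 7, 3, 1 and 5 UMIs, while Bcl2l1 and Pim1 joined it with at most 1000 genes.

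Genes of clearance, the removal of organelles and proteins late in maturation, came out more often once larger members were left aside. In all members 3 of 19 passed: Mkrn1, a ubiquitin ligase, Ube2l6, a conjugating enzyme for ubiquitin and ISG15, and the exonuclease Isg20. Members with at most 1000 genes gave 12 of 19, among them Bnip3l, the mitophagy receptor, the hybrid ubiquitin enzyme Ube2o, the autophagy proteins Map1lc3b and Gabarapl2, the nuclear export protein Xpo7 and Riok3. Mkrn1 reached 2336, 3454, 639 and 1232 CPM in all members, log2 ratios of 4.74 to 7.22, and Bnip3l had log2 ratios of 3.19 to 4.47 in members with at most 1000 genes. Clearance genes were therefore part of the erythroid profile at both ages and in each genotype.

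Oxygen chemistry was marked as well. Prdx2, the red cell peroxiredoxin, stood at 10962, 8705, 3196 and 4397 CPM and Gpx1, a glutathione peroxidase, at 5937, 5424, 1886 and 2289.5, log2 ratios of 2.16 to 3.59 and 3.82 to 5.31. They and Gclm were the 3 of 12 antioxidant genes past the fold, and Cat and Gpx4 joined with at most 1000 genes. Of 16 glycolysis genes Bpgm passed, the mutase that makes the hemoglobin ligand 2,3-bisphosphoglycerate, at 2707, 2675, 655 and 700.5 CPM (log2 4.89 to 6.73). Gapdh, in contrast, had log2 ratios of 0.04 to 0.18.

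Genes outside any list stood apart as well. Tspo2, a cholesterol binding protein of erythroblasts, stood at 218, 423, 108 and 162 CPM, and Rec114, known from meiotic recombination, at 176, 272, 101 and 136 (log2 9.22 to 11.57). Nudt4, a phosphatase of inositol pyrophosphates, stood at 8994, 1332, 721 and 1142 CPM.

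In members with at most 1000 genes, 69 genes were 4-fold lower than in other cells in each library. Ldha and Pgk1, enzymes of glycolysis, were 2 of the 16 on that list, with log2 ratios of -4.68 to -2.28 and -4.09 to -2.16 (Pgk1 at 0 in DCKO). Among 12 immediate early genes, Fos, Jun and Egr1 were lower, Fos with log2 ratios of -3.31 to -2.49. Of the cartilage markers 8 of 13 were lower, Col2a1 by -5.25 to -2.90, and of the connective tissue markers 4 of 12: Col1a2, Col3a1, Sparc and Ptn. None of these passed in all members, where larger members supply most of the RNA. The bound was set after 69 of the 71 larger members were seen to hold at least 5 cartilage and connective tissue marker UMIs. The counts of those markers therefore describe that split and test nothing.

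Of the membrane genes tested, 10 of 23 were 4-fold higher in each library in all members, and the 250 bases before the starts of some of them are shown. Promoters were taken from RefSeq (build GRCm38.p6) and searched on both strands for AGATAA, letters of the GATA factor motif, and CCACACCC, letters bound by Klf1. AGATAA lay in 3281 of 32851 promoters (9.99%) and CCACACCC in 1050 (3.20%). Of 28 membrane genes 19 were matched by symbol, with 24 promoters between them, and 7 of the 24 held AGATAA (29.2%), those of Epb42, Rhd, Kel, Tmcc2, Icam4, Mpp1 and Cd44; none held CCACACCC. Of 12 heme genes 10 were matched, with 12 promoters, and 1 held AGATAA (8.33%), that of Alas2. The search also took the 15 genes with the largest log2 ratios over other cells, ranked by the lowest of the 4 libraries. Of these 8 were matched, with 9 promoters. AGATAA lay in 1 of the 9 (11.1%), near the 9.99% of all promoters, and CCACACCC in none. Those printed are Alas2 and the 4 membrane genes that were also 4-fold higher in all members, a choice made after matching, with AGATAA or its reverse complement TTATCT in capitals. They lie at chrX:150547167-150547416 (Alas2, plus strand), chr4:134864286-134864535 (Rhd, plus), chr6:41704326-41704575 (Kel, minus), chr1:132367949-132368198 (Tmcc2, minus) and chr9:21029182-21029431 (Icam4, plus). Of the genes printed, Kel and Icam4 did not pass in members with at most 1000 genes. A match describes the letters of the window and says nothing of binding.
Alas2: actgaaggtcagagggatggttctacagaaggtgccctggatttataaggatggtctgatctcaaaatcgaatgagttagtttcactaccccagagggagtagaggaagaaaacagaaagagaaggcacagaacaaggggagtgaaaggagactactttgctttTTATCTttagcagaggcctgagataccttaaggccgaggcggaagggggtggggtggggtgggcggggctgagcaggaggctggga
Rhd: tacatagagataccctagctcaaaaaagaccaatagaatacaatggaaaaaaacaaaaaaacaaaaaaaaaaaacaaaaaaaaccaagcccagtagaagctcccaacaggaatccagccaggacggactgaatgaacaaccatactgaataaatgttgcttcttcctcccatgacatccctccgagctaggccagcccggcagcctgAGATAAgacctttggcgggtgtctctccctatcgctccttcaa
Kel: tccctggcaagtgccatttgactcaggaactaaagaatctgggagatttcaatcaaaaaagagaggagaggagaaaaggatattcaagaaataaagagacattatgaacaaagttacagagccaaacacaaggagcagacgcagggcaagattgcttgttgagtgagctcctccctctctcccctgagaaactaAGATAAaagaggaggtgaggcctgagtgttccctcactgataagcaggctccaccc
Tmcc2: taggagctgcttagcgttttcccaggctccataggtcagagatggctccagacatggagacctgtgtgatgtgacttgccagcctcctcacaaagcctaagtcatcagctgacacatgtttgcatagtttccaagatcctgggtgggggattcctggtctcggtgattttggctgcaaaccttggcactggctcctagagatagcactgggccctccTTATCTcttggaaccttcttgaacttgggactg
Icam4: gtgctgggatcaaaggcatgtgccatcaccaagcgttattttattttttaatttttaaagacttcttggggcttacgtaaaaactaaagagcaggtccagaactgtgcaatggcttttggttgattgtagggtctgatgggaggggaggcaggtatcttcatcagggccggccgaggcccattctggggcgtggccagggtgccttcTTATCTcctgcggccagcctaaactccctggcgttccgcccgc

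Erythroid cells fell into 2 classes by their beta-like globins, with next to nothing between. In 171 members Hbb-y and Hbb-bh1, the embryonic chains, made at least 60% of beta-like UMIs; in 156 they made under 5%, and 1 cell, in Prx1cre;Glut1f/f;Glut3f/+, stood at 46.9%. Members above 50% are called embryonic class and the rest adult class. The embryonic class made 100 of 136 members of the E13.5 control, 73.5% (65.3 to 80.7), and 29 of 91 of the E14.5 control, 31.9% (22.5 to 42.5). It made 27 of 61 in Prx1cre;Glut1f/f;Glut3f/+, 44.3% (31.5 to 57.6), and 15 of 40 in DCKO, 37.5% (22.7 to 54.2). Without larger members the shares were 71.1 (61.8 to 79.2), 32.5 (22.2 to 44.1), 47.4 (31.0 to 64.2) and 42.9% (24.5 to 62.8), and the interval of the E13.5 control then overlaps those of both mutant libraries. The minimum of genes moved some of them: with no minimum the E14.5 control had 19.7% and Prx1cre;Glut1f/f;Glut3f/+ 27.3%, and with at least 500 genes the E13.5 control had 84.6%.

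**Figure D2:**
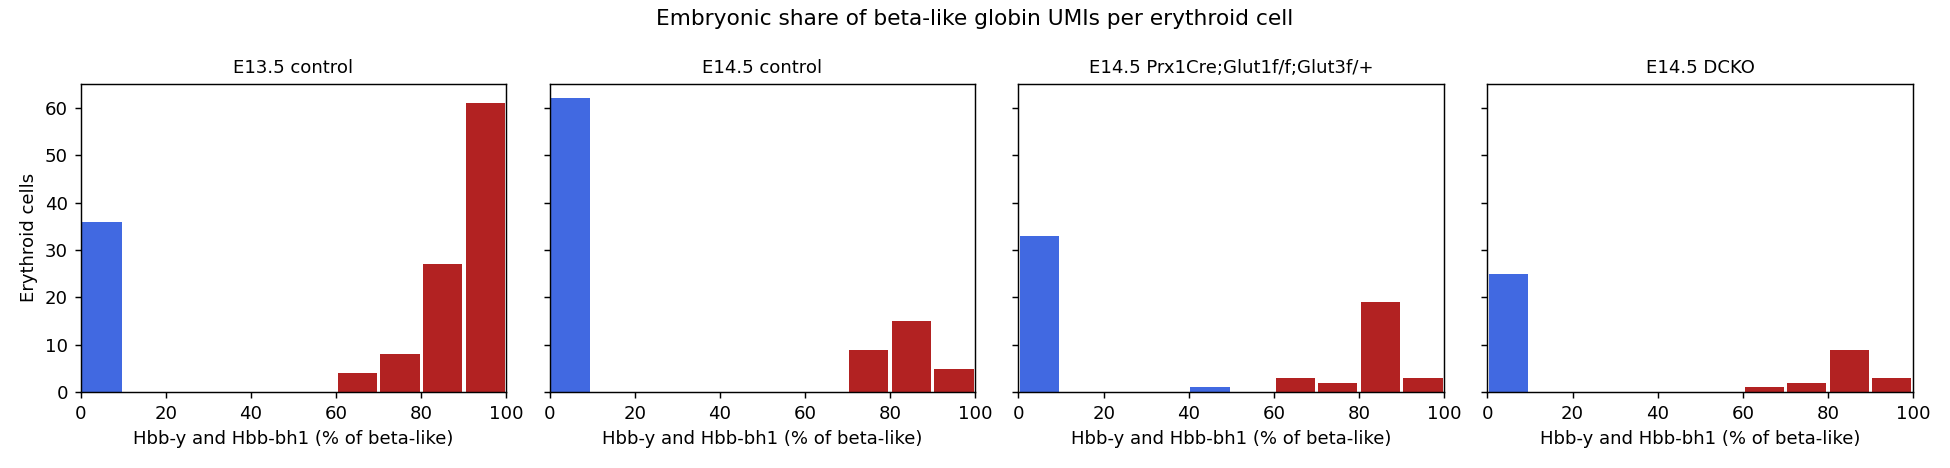
Number of erythroid cells by the percent of beta-like globin UMIs that come from Hbb-y and Hbb-bh1, in steps of 10%, 1 panel per library (red above 50%, blue below). Shares above 50% were 73.5, 31.9, 44.3 and 37.5%.

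Within the embryonic class Hbb-y gave 88.8, 83.4, 84.3 and 84.9% of beta-like UMIs. Hba-x, the embryonic alpha-like chain, gave 42.8% of alpha-like UMIs at E13.5 and 26.3, 29.1 and 26.1% at E14.5. So embryonic class cells of each E14.5 library carried less Hba-x beside Hba-a1 and Hba-a2 than those of E13.5. Reads of the near-identical pairs Hba-a1 and Hba-a2, and Hbb-bs and Hbb-bt, cannot be assigned with certainty, so only their sums are used. In other cells Hbb-y made 60.1, 15.2, 23.8 and 12.8% of beta-like UMIs, beside 70.9, 19.5, 35.6 and 28.5% in all members.

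The classes differed beyond globins. Nudt4 was higher in the embryonic class in all members and in those with at most 1000 genes, while most calls within lists came from the latter. There 13 of 63 ribosomal protein genes were higher in the embryonic class, and genes of heme synthesis (3 of 4), membrane (5 of 6), clearance (4 of 8), iron (3 of 6) and the mitochondrial genome (4 of 6) in the adult class. All members gave 0 of 77 ribosomal protein and 0 of 12 mitochondrial genes, 1 of 6 heme, 3 of 7 membrane and 2 of 13 clearance genes on the adult side, and of 10 iron genes Hmox1 on the embryonic and Slc25a37 on the adult side. In all members 6 of 1464 genes were at least 2-fold higher in the embryonic class of each library (0.410%) and 16 in the adult class (1.09%). Members with at most 1000 genes gave 23 of 195 (11.8%) and 45 of 195 (23.1%), of which 4 and 11 are shared with all members. The classes there hold 81, 25, 18 and 12 embryonic and 33, 52, 20 and 16 adult cells, and the values that follow are theirs.

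**Figure D3:**
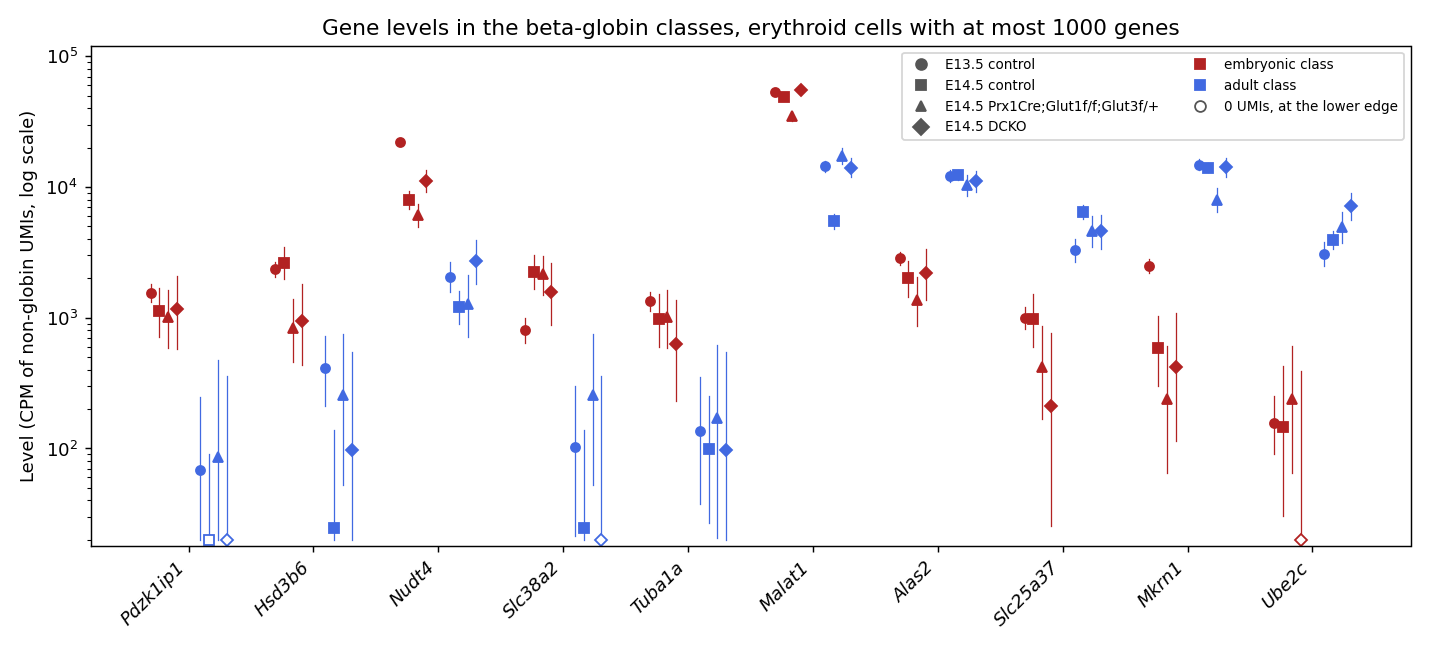
Level of 10 genes in CPM (log scale) in the embryonic class (red) and adult class (blue), 1 point per library, members with at most 1000 genes. Bars are 95% Poisson intervals and hollow points mark 0 UMIs; Nudt4 stood at 22232, 7929, 6076 and 11168 in the embryonic class.

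On the embryonic side, Pdzk1ip1, a small membrane-associated protein, stood at 1552, 1126, 1013 and 1159 CPM, against 68.7, 0, 85.3 and 0 in the adult class. Its log2 ratios were 4.50 and 3.57 at E13.5 and in Prx1cre;Glut1f/f;Glut3f/+, with bounds of 3.92 and 1.99 in the other 2, so nearly all of it lay in the embryonic class. Hsd3b6, a hydroxysteroid dehydrogenase, stood at 2346, 2643, 834 and 948 against 412, 24.8, 256 and 97.6. It had too few UMIs in DCKO to be tested there, but passed in all members (log2 2.34 to 6.06). Nudt4 exceeded its adult class levels of 2062, 1216, 1279 and 2732 by log2 3.43, 2.71, 2.25 and 2.03. Slc38a2, an amino acid transporter, stood at 804, 2251, 2145 and 1580.4 against 103, 24.8, 256 and 0. The tubulin gene Tuba1a, at 1339, 979, 1013 and 632 against 137, 99.3, 171 and 97.6, also fell short of the entry count in DCKO, and had log2 ratios of -0.32 to 2.24 in all members. Prdx1, a peroxiredoxin, had log2 ratios of 2.06, 1.47, 3.80 and 2.57. Of 63 ribosomal protein genes tested, 13 were higher, Rpl17 by log2 1.91 to 2.10, and all such genes summed to 202553, 246231, 273247 and 230323 CPM against 93055, 138663, 134852 and 137366. Their median log2 ratio was 1.19, 0.82, 1.21 and 0.87.

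Malat1, a long RNA that stays in the nucleus, was detected in more cells of the embryonic class. In the embryonic class 96.3, 100, 94.4 and 100% of cells had a Malat1 UMI, with a median of 65, 26, 29 and 36 UMIs at median non-globin depths of 1337, 752, 778 and 773. In the adult class 45.5, 38.5, 55.0 and 50% did, with a median of 0, 0, 1 and 0.5 at depths of 794, 628, 506 and 576. Thinned to 250 non-globin UMIs the shares were 95.4, 93.7, 92.2 and 94.7% against 28.8, 21.6, 39.1 and 29.9%, so the gap held at equal depth. Other cells, at the depths given with Alas2, had Malat1 in 94.8, 96.8, 97.6 and 97.5%, or 75.6, 84.3, 88.7 and 83.1% when thinned. As levels, Malat1 stood at 53275, 48894, 34729 and 55316 against 14398, 5484, 17400.2 and 14049, short of 2-fold in Prx1cre;Glut1f/f;Glut3f/+, so that it did not pass throughout. The classes overlap, and single adult class cells held 231 of 419, 100 of 221, 135 of 204 and 111 of 144 Malat1 UMIs. Whether single cells held a nucleus was not measured.

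On the adult side, heme genes led. Alas2 stood at 12061, 12358, 10321 and 11122 CPM in the adult class, against 2854, 2007, 1370.1 and 2213, log2 ratios of -2.08, -2.62, -2.91 and -2.33 for embryonic over adult. Its adult class levels were nearly level over libraries. Fech, at 2474, 3003, 2559 and 1951 against 933, 489, 298 and 421, and Urod, another heme enzyme, made it 3 of the 4 heme genes tested. In sum, heme genes reached 19896, 18015, 18083 and 19707 CPM against 5957, 3964, 3276 and 3688. With larger members included, Alas2 had log2 ratios of -2.29, -1.80, -1.73 and -0.01 and did not pass in DCKO.

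Most membrane genes tested and some iron genes lay on the same side. Of 6 membrane genes tested 5 passed, among them Epb41, Tmcc2, Mpp1 and Cd24a. For Tmcc2 single cells held 34 of 64, 17 of 34, 9 of 12 and 13 of 34 adult class UMIs. Without the highest cell of each class it stood at 1123, 433, 266 and 2171 against 666, 100.2, 0 and 120.4, short of 2-fold at E13.5. Mpp1, a palmitoylated protein of the membrane skeleton, had no UMI in the embryonic class of any library. Slc4a1 went the same way without passing throughout, at log2 -0.67, -1.56, -1.35 and -1.40. Iron genes gave 3 of 6, with Slc25a37 at 3299, 6452, 4606 and 4585 against 998, 979, 417 and 211, and with Ncoa4 and Glrx5. Hmox1, with too few UMIs to be tested throughout, was higher in the embryonic class. It stood there at 1164 against 481 at E13.5 and at 298 against 85.3 in Prx1cre;Glut1f/f;Glut3f/+. All its UMIs of the E14.5 control and DCKO lay in that class.

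Mkrn1 and others of the clearance list lay on the adult side too. Mkrn1 stood at 14776, 14095, 8018 and 14244 CPM in the adult class against 2494, 587, 238 and 421. Of 8 clearance genes tested 4 passed, the others being Ube2l6, Ube2h and Gabarapl2. Ube2c, a ubiquitin enzyme of late mitosis from the cell cycle list, stood at 3093, 3946, 4947 and 7122 against 157, 147, 238 and 0, with 43 of its 73 UMIs in DCKO in 1 cell. For Mkrn1 and Ube2c each adult class level was above each embryonic class level. Gpx1 at 29689.7, 22507, 25162 and 20293 against 7814, 3475, 4169.9 and 1791, Bpgm, and Car2 with log2 ratios of -2.13 to -1.09 passed too. RNA of the mitochondrial genome summed to 41751, 43401, 36592 and 29561 against 14815, 13068, 9531 and 7375, and mt-Co1, mt-Co2, mt-Co3 and mt-Atp6 passed of 6 tested.

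From E13.5 to E14.5 the embryonic class went from 73.5 to 31.9% of the control erythroid cells. Ctse, the protease cathepsin E, rose, also within the adult class, and Nudt4, Hmox1, Plek2 and Cd59a fell. In all members 389 of 4111 genes were at least 2-fold higher at E14.5 (9.46%) and 497 lower (12.1%), against 188 and 972 in CPM of all UMIs and 513 and 1104 as means over cells. Without larger members it was 95 of 1165 (8.15%) and 250 (21.5%). Among genes with at least 20 UMIs and 50 CPM, Scrg1, Ctse, Ucma, Pcp4 and Col12a1 rose most in all members (log2 5.51, 4.51, 4.03, 3.61 and 2.97). Of these, the cartilage and connective tissue genes Scrg1, Ucma and Col12a1 went from 1, 0 and 8 UMIs to 26, 28 and 36. They had 1, 0 and 2 UMIs left at E14.5 in members with at most 1000 genes, and 1 cell held 23 of the 28 of Ucma. Pcp4 had 4 UMIs at E13.5, and all its 28 at E14.5 sat in 1 larger member. The values below therefore come from members with at most 1000 genes.

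Ctse went from 21.8 CPM at E13.5 (3 UMIs) to 807 at E14.5 (49 UMIs in 25 of 77 cells), a log2 ratio of 5.21 (3.58 to 7.53). It rose within the adult class, by 3.92 (1.98 to 7.01), while the embryonic class, with 1 and 7 UMIs, was not tested. Ctse stood at 351 and 608 in the mutant libraries. Nusap1, a spindle protein, and Mpp1 rose by log2 2.76 (1.97 to 3.62) and 2.54 (1.75 to 3.39) over both classes. Within the adult class Mpp1 had a log2 ratio of 0.90 (0.11 to 1.74) and did not pass, while Nusap1 rose by 1.48, and so did mt-Atp8, a subunit of ATP synthase, by 1.94. Within the adult class 52 of 480 genes were higher (10.8%) and 60 lower (12.5%); within the embryonic class 57 of 921 were higher (6.19%) and 194 lower (21.1%).

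Nudt4 fell from 17959 to 3474 CPM, by log2 -2.37 (-2.58 to -2.17), and within the embryonic class by -1.49, while the adult class, at -0.76, did not pass. Hmox1 fell from 1019 to 148, by -2.78 (-3.94 to -1.82), and by -1.40 (-2.56 to -0.43) within the embryonic class. Cd59a, a complement inhibitor, fell from 1674 to 313, by -2.42 over both classes, -2.28 within the embryonic and -2.53 within the adult class, so it fell within both classes. Plek2, a pleckstrin of the red cell skeleton, went from 35 UMIs to 1, log2 -3.95 (-9.30 to -1.38), and Tal1 fell by -2.54 over both classes and -1.25 within the embryonic class. The adducins Add1 and Add2 fell by -2.68 and -2.35 and the claudin Cldn13 by -2.41. Malat1 fell from 45039 to 20089, yet had -0.12 within the embryonic class and fell by -1.39 within the adult class, from 14398 to 5484 CPM, or from 7038 to 3098 without the highest cell of each.

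Over both classes, where 8.15% of all genes rose and 21.5% fell, 5 of 10 transcription factors tested fell and 1 rose, membrane genes gave 3 rises and 6 falls of 20 (15 and 30%), and heme genes 0 and 1 of 9 (0 and 11.1%); 4 of 12 genes of the mitochondrial genome rose. Within the embryonic class (6.19 and 21.1% of all genes) 2 of 6 transcription factors, 5 of 17 membrane and 3 of 7 heme genes fell and none rose. Within the adult class (10.8 and 12.5%) it was 0 of 2, 3 of 9 and 2 of 6, again with no rise, and 3 of 12 mitochondrial genes rose. The median log2 ratio over both classes was 0.81 for the mitochondrial list and -0.13 for ribosomal protein genes, beside -0.19 over all genes. Inside the embryonic class Slc25a39, a mitochondrial glutathione carrier, fell from 1016 to 97.9 CPM, Tmcc2 by -2.68 and Mkrn1 by -2.09, while Slc38a2 rose by 1.49. In some changes 1 cell held many of the UMIs. The linker histone Hist1h1c fell in the adult class from 1924 to 124 CPM, but 29 of the 56 adult class UMIs of E13.5 sat in 1 cell. Slc2a1, the gene of Glut1, fell there from 1203 to 99.3, with 30 of its 35 UMIs in 1 cell of E13.5, and Mt2, a metallothionein that rose in the embryonic class from 462 to 1419, had 26 of its 29 UMIs in 1 cell of E14.5. Without the highest cell of each library the levels were 986 and 77.9 for Hist1h1c, 187 and 51.2 for Slc2a1, and 292 and 164 for Mt2.

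Erythroid cells of Prx1cre;Glut1f/f;Glut3f/+ showed lower Fam126a than those of the E14.5 control, both in all members (log2 -4.93) and without larger members. In members with at most 1000 genes Mkrn1 and mt-Nd4 were lower over both classes. Within the embryonic class they passed the fold only on the few UMIs given below. They were short of the fold within the adult class, and none of the heme genes passed. The E14.5 control also serves the DCKO comparison and the comparison of ages, so the 3 are not independent. Xist, an RNA of female cells, had 0 UMIs in members of that control. It had 158 at E13.5, 178 in Prx1cre;Glut1f/f;Glut3f/+ and 102 in DCKO, so sex cannot be told apart from genotype or age. In all members 408 of 3678 genes were at least 2-fold higher (11.1%) and 265 lower (7.21%), but which side was larger depends on the setting: CPM of all UMIs gave 2245 higher and 38 lower, means over cells 1268 and 296, members with at least 50% globin 43 and 164, and subtracting other cells 151 and 238. In the main setting heme genes were lower in 3 of 6, iron genes in 6 of 12, membrane genes in 9 of 12 and clearance genes in 8 of 16. Cells with more than 1000 genes, however, made 68.3% of the control's RNA and 89.0% of this library's. With at most 1000 genes (77 and 38 cells) 37 of 568 were higher (6.51%) and 87 lower (15.3%), and the lists gave 0 of 5 heme, 1 of 10 membrane and 5 of 13 clearance genes lower.

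Mkrn1 fell from 9550.3 to 3437 CPM, by log2 -1.47 (-1.80 to -1.16), and had -0.81 within the adult class, short of the fold. Within the embryonic class it went from 587 to 238 CPM, past the fold on 12 and 4 UMIs. Slc25a37 fell from 4610.5 to 2139.5, by -1.11, but had -0.49 (-0.94 to -0.06) within the adult class. Over both classes Bnip3l fell by -1.01 and Ube2l6 by -1.16. Clearance genes had a median log2 ratio of -0.55, against -0.15 over all genes. Within the adult class, however, 0 of 13 passed, beside 9.43% of all genes lower. Within the embryonic class 2 of 5 passed, Bnip3l with -1.59, beside 8.53% of all genes lower. Fam126a, the gene of hyccin, a membrane lipid kinase adaptor, had 65 UMIs in 29 control cells and 0 here, a fall of at least log2 3.35, or 2.66 within the adult class. Pet100, a cytochrome oxidase assembly factor, and Dcaf12, a ubiquitin ligase adaptor, went from 28 and 25 UMIs to 1 each, log2 -3.72 (-9.07 to -1.12) and -3.55 (-8.91 to -0.94). Fam126a stood at 659 CPM in DCKO and 306 at E13.5, so among cells with at most 1000 genes the 0 was found in this library alone; all its members held 3 UMIs.

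Other values moved less evenly. The mitochondrial gene mt-Nd4, of complex I, fell by log2 -1.49 (-2.24 to -0.82) over both classes, with 28 of the 126 control UMIs in 1 cell, and had -0.92 (-1.78 to -0.15) within the adult class, short of the fold. Within the embryonic class it went from 1077 to 298 CPM, past the fold on 22 and 5 UMIs, with 4 of those 5 in 1 cell. Over both classes 2 of the 12 genes of the mitochondrial genome were lower, near the 15.3% of all genes that were lower there. Malat1 went from 5484 to 17400.2 CPM within the adult class, log2 1.67 (1.38 to 1.95), but 135 of its 204 UMIs there sat in 1 cell, and without the highest cell of each library it stood at 3098 and 6108. Snhg1, a host gene of small nucleolar RNAs, rose by 2.15 (1.10 to 3.28), though 18 of its 25 UMIs sat in 1 cell, and the stress phosphatase subunit Ppp1r15a rose by 1.24 (0.45 to 2.03), with 10 of its 31 UMIs in 1 cell. Within the embryonic class Hsd3b6 fell by -1.66 (-2.63 to -0.80). Of 258 genes tested in that class 24 were higher (9.30%) and 22 lower (8.53%), and of 435 in the adult class 21 (4.83%) and 41 (9.43%). Ribosomal protein genes had 3 of 75 higher and a median of 0.34.

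Erythroid cells of DCKO with at most 1000 genes had lower mt-Cytb and mt-Nd4 and higher Prdx1 and Tmcc2 than the E14.5 control. In all members 248 of 2902 genes were at least 2-fold higher (8.55%) and 406 lower (14.0%). This balance too depends on the setting, with 1216 higher and 93 lower in CPM of all UMIs, 612 and 447 as means over cells, and 365 and 232 with other cells subtracted. With at most 1000 genes (28 cells against 77) 30 of 556 were higher (5.40%) and 76 lower (13.7%). Of 20 cell cycle genes tested 10 were higher in all members, but 1 cell held 49.1% of their UMIs in DCKO. That cell also held 30 of the 31 UMIs of Hemgn, a nuclear protein of erythroblasts, whose log2 ratio was 3.27 in all members and -0.38 with at most 1000 genes.

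With at most 1000 genes, mt-Cytb, of complex III, fell from 2914 to 1064 CPM, by log2 -1.45 (-2.18 to -0.80), and by -1.44 within the adult class. The gene mt-Nd4 fell from 2075 to 962, by -1.11 (-1.89 to -0.41). Single control cells held 37 of the 177 UMIs of mt-Cytb and 28 of the 126 of mt-Nd4. Without the highest cell of each library the levels were 2375 and 949 for mt-Cytb and 1663 and 793 for mt-Nd4. Without the control cell alone, mt-Nd4 stood at 1663 against 962, short of the fold. In all, 5 of 12 genes of the mitochondrial genome were lower, beside 13.7% of all genes, with a median of -0.85 beside -0.14 over all genes. Within the adult class it was 3 of 12, beside 11.2% of all genes. In all members mt-Cytb had -0.04 and mt-Nd4 -0.12, so neither passed with larger members included. Atp5k, a subunit of ATP synthase encoded in the nucleus, went from 43 UMIs to 3, log2 -2.22 (-4.55 to -0.58), and the proton pump subunit Atp6v1f from 25 to 1. Within the adult class Atp5k fell by -1.65, while Atp6v1f, with 17 UMIs and 0, had a bound of -0.53, short of the fold.

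Prdx1 rose from 395 to 1317 CPM, by log2 1.74 (0.88 to 2.60), and by 1.76 within the embryonic class, with 9 of its 26 UMIs in 1 cell, and had 0.65 within the adult class. Tmcc2 rose from 609 to 1824, by 1.58 (0.88 to 2.28), with 17 of 37 UMIs in 1 control cell and 13 of 36 in 1 DCKO cell. Hmox1 rose by 2.04 (0.67 to 3.46) on 9 and 12 UMIs. All 30 UMIs of Isg15, an interferon-induced ubiquitin-like protein, were in 1 adult class cell. The unnamed gene Gm26885 had 74 UMIs in 3 cells of the embryonic class, 54 of them in 1, and stood at 3749 CPM, or 1046 without that cell, against 65.9 in the control. Mt2 had 34 UMIs in the control, 26 of them in 1 cell, and 11 in DCKO. Of 230 genes tested in the embryonic class 12 were higher (5.22%) and 38 lower (16.5%), and of 436 in the adult class 29 (6.65%) and 49 (11.2%).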

How the data were processed

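Raw UMI counts per cell were deposited by the authors as matrices made with Cell Ranger 6.1.2 per the file headers, from 3' libraries; Seurat version 3 and mm10 are named per the labels. The filter kept barcodes of 200 to 6000 genes with mitochondrial UMIs at 10% or less, no doublets were removed, and members had at least 20% globin UMIs. UMIs were summed per library and group and scaled to CPM of non-globin UMIs. Levels carry Poisson, shares Clopper-Pearson and ratios exact conditional intervals of 95%. A gene entered with at least 10 UMIs in either group and passed at 4-fold (erythroid against other cells) or 2-fold (other comparisons), where a count of 0 was set to 3 for a bound. Genes were named from lists, and beyond these as the top 15 by level or ratio and the top 10 of each library or class comparison with at least 20 UMIs and 50 CPM. Genes described by the share of their UMIs in 1 cell were chosen after their values were seen. The members and lists were chosen with earlier results of these data known. Of 16 alternatives, the limit of 1000 genes and the comparisons within classes were added after seeing the data. Ahsp was not analysed here, and some genes that lists and counts include are not reported here by name. Promoters are from RefSeq, GRCm38.p6. Scripts used Python 3.11.15, numpy 2.4.6, scipy 1.17.1, pandas 2.3.3, matplotlib 3.10.9, R 4.3.3 and edgeR 4.0.16 (TMM factors only), and were tested on simulated data.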

Additional observations from a re-analysis of the deposited data

Results flagged for a closer look

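A signal sits in barcodes that the filter removed. In the E13.5 control 21 barcodes, in the E14.5 control 87, in Prx1cre;Glut1f/f;Glut3f/+ 82 and in DCKO 55 held at least 20% globin UMIs but did not count as cells, 245 in all, each because it showed fewer than 200 genes (medians of 153, 132, 139 and 137). They drew attention because a filter that took no globin-rich barcode would leave 0. Of these barcodes 5, 6, 12 and 11 were of the embryonic class by Hbb-y and Hbb-bh1, 23.8, 6.90, 14.6 and 20%, against 73.5, 31.9, 44.3 and 37.5% of the erythroid cells. The difference was not tested.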

How the results depend on the processing

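Of 172 counts and shares under 16 alternatives, 102 stayed within their limit (1.5-fold for a count, the 95% interval for a share), and 1068 of 1073 ratios of single genes kept their sign, 762 of them within 1 on the log2 scale. TMM factors, 10% globin, 5% mitochondrial UMIs, other cells under 1% globin and class limits of 25 or 75% moved no count past 1.5-fold. The cause of the shifts below was not tested, except that a higher entry count tests fewer genes. Depth limits the mutant libraries most, with 28511 and 19741 non-globin UMIs in members with at most 1000 genes.

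At 50% globin, Prx1cre;Glut1f/f;Glut3f/+ kept 39 cells; 167 genes were higher and 6 lower than in other cells; 263 fell at E14.5; Prx1cre;Glut1f/f;Glut3f/+ gave 43 higher and 164 lower, DCKO 35 and 164, and the classes 15 (embryonic) and 44 (adult). With at least 500 genes, 52, 18, 26 and 14 cells remained, 33 genes were higher than in other cells, the embryonic share at E13.5 was 84.6%, and the classes gave 1 and 1. With no minimum, the E14.5 libraries held 178, 143 and 95 cells, the embryonic share was 19.7% in the control and 27.3% in Prx1cre;Glut1f/f;Glut3f/+, and 27 genes were higher in the adult class. In CPM of all UMIs, erythroid cells gave 45 higher and 200 lower, E14.5 188 and 972, Prx1cre;Glut1f/f;Glut3f/+ 2245 and 38, and DCKO 1216 and 93. As means over cells, erythroid cells gave 165 and 168, E14.5 1104 lower, Prx1cre;Glut1f/f;Glut3f/+ 1268 higher and DCKO 612 higher. With at least 50 UMIs, E14.5 gave 45 and 58, Prx1cre;Glut1f/f;Glut3f/+ 16 and 62, and DCKO 14 and 52. With other cells subtracted, E14.5 gave 249 and 307, Prx1cre;Glut1f/f;Glut3f/+ 151 higher and DCKO 232 lower.

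These were added after seeing the data. With at most 1000 genes, Prx1cre;Glut1f/f;Glut3f/+ kept 38 cells, erythroid cells gave 180 and 69, E14.5 95 and 250, Prx1cre;Glut1f/f;Glut3f/+ 37 and 87, DCKO 30 and 76, and the classes 23 and 45. Within the embryonic class E14.5 gave 57 and 194, Prx1cre;Glut1f/f;Glut3f/+ 24 and 22, and DCKO 12 and 38. Within the adult class they gave 52 and 60, 21 and 41, and 29 and 49.

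The log2 ratio changed sign for Hemgn in DCKO, to -0.29 at 50% globin, -0.15 as a mean over cells and -0.38 with at most 1000 genes, for Scrg1 in DCKO, to 1.29 at 50% globin, and for Pcp4 at E14.5, to -0.75 as a mean over cells.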

Other observations

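A single DCKO member, singled out after its values were seen, had 20.3% globin, 3978 genes and 23953 non-globin UMIs, and unlike most members with more than 1000 genes it held 3 cartilage marker UMIs and 0 of connective tissue markers. All 24 cell cycle genes had UMIs in it, 246 in all, with 39 of Mki67, the proliferation antigen, 25 of Top2a, a topoisomerase, and 33 of Ube2c. Car2 had 84 UMIs, Slc4a1 17, Alas2 10, Tfrc 12 and Klf1 6, Kit had 0, and the embryonic share of its beta-like globins was 0%. It supplied 15.5% of the non-globin UMIs of the DCKO members, and 15 of 22 UMIs of Icam4, 13 of 23 of Rrm2 and 51 of 51 of Hist1h1b.

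Slc2a1, the gene of Glut1, had 36, 5, 2 and 11 UMIs in erythroid cells with at most 1000 genes, and its log2 ratio of DCKO over control there was 2.76 (1.12 to 4.64). In other cells Slc2a1 stood at 48.2, 65.2, 341 and 429.5 CPM, so the 3' count was higher in both mutant libraries.

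Xist, the RNA of the inactive X chromosome, had 158, 0, 178 and 102 UMIs in all members and 13, 0, 4 and 3 in those with at most 1000 genes. A Xist UMI was present in 65.2, 0.174, 92.4 and 91.4% of other cells. Sex therefore cannot be told apart from group in these libraries.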
